A study of Mus musculus with 2 samples.

Results

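The transcription factors of interneurons born in the medial ganglionic eminence (MGE) were followed here as 7 genes, *Nkx2-1*, *Lhx6*, *Lhx8*, *Sox6*, *Satb1*, *Maf* and *Mef2c*, chosen by name among the 32285 genes listed. All 7 had counts in the cells kept. The MGE lies in the ventral telencephalon and gives rise to the SST+ and parvalbumin-positive cortical interneurons (cINs), which migrate tangentially into the cortex. NKX2-1, a homeodomain factor, sets MGE identity in dividing progenitors and is switched off in most cells that turn into cINs, whereas neurons staying in the ventral forebrain can keep it. LHX6 and LHX8 are LIM-homeodomain factors induced in this lineage, LHX6 being required for cIN migration and fate and LHX8 for cholinergic neurons of the basal forebrain. SOX6 and SATB1 act after LHX6 in the positioning and maturation of cINs, and MAF and MEF2C are known for biasing MGE interneurons between the SST+ and parvalbumin-positive fates.

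RNA was counted in single cells dissociated from cortical tissue of E16.5 mouse embryos, in 2 libraries that form a single group. Both came from wild-type (WT) control embryos, titled EomesDot, of an *Eomes-Cre* line, with no treatment, and the labels name no further allele. The labels do not say whether a library holds 1 embryo or several, so cell classes were compared within these libraries. Each SE beside a log2 fold change comes from the fitted model, and each SD is the spread from one library to the other. Library 1 gave 5534 cells at a median of 5493 unique molecular identifiers (UMIs, counted molecules) and library 2 gave 9136 cells at a median of 4728, with 21 barcode sequences found in both among the cells that passed the filters on UMIs and mitochondrial share.

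MGE-type cells were those with at least 1 *Lhx6* UMI and at least 1 *Gad1* or *Gad2* UMI, the genes of GABA synthesis. They numbered 429 of the cells in library 1 (7.75%) and 546 in library 2 (5.98%). The gate was shallow. A single *Lhx6* UMI carried 50.1% of these cells in library 1 and 58.6% in library 2, while 2.99% and 0.930% of erythroid cells, which should lack *Lhx6*, held at least 1 UMI of it. At least 1 UMI of the excitatory markers *Neurod2* or *Neurod6* was present in 20.3% and 26.7%. Of 8 MGE interneuron markers that the gate did not use, 6 (among them *Nxph1*, *Sst*, *Npy*, *Erbb4* and *Ackr3*) had a higher mean level in MGE-type cells than in every other class, while *Dlx5* ranked 3 and *Dlx6* ranked 5 among the classes. Markers of other cells were below their own classes. *C1qa*, of microglia, was at 17.6 and 2.94 CPM (the gene's UMIs scaled to a total of 1000000 UMIs in the class) in MGE-type cells against 2417 and 2308 in microglia, and *Ebf1*, of striatal neurons, was at 129.7 in library 1 and 6.73 in library 2 against 3192 and 3343 in striatal-type cells. *Adarb2*, of CGE interneurons, was at 573 and 435 CPM against 5549 and 4764 in CGE-type cells. The other classes used below were gated on their own markers, and CGE-type (caudal ganglionic eminence), striatal-type and other GABAergic cells were also required to hold no *Lhx6* UMI.

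For 4 members the 250 bases before the outermost transcription start in RefSeq's promoter table are shown, because these genes mark the cells compared below: *Lhx6* sets the gate, *Nkx2-1* and *Lhx8* were detected together more often than their single shares give, and *Mef2c* was detected in fewer of those cells than of the other MGE-type cells. The sequences are RefSeq's on GRCm38.p6 (mm10), from 5′ to 3′ on the gene's strand, with each CpG in capitals. That table holds further starts for some genes, which were not used, and its starts can differ from the ends of the gene records given below, so that the *Lhx6* window lies inside its gene record and the *Mef2c* window reaches into its own. *Nkx2-1* is at chr12:56536909-56537158 (minus strand), *Lhx6* at chr2:36105409-36105658 (minus), *Lhx8* at chr3:154330561-154330810 (minus) and *Mef2c* at chr13:83503784-83504033 (plus).
Nkx2-1: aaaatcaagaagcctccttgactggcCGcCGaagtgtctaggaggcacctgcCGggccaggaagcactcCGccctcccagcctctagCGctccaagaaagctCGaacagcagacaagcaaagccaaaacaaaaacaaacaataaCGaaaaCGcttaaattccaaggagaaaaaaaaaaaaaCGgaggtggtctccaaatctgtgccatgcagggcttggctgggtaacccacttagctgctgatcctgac
Lhx6: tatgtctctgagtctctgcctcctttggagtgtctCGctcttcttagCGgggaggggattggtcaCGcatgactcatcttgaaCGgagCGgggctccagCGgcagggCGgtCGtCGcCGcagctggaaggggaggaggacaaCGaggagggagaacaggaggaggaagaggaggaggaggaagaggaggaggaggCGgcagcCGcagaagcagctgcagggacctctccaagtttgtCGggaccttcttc
Lhx8: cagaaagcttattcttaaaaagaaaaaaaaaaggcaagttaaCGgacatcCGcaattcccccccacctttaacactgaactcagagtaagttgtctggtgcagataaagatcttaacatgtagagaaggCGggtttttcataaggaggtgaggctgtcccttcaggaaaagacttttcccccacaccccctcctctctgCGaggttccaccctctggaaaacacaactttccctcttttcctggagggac
Mef2c: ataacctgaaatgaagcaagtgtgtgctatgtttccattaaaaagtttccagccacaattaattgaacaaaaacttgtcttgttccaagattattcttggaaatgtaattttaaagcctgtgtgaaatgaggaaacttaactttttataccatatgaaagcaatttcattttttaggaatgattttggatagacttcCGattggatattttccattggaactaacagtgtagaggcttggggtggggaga

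The windows differed in CpG content. *Lhx6* held 14 CpGs, *Nkx2-1* and *Sox6* 9 each, *Satb1* 5, *Lhx8* 4 and *Mef2c* 1, against a median of 6 over 32851 promoter windows. RefSeq's table matched 6 of the 7 members, all but *Maf*. Both strands were searched for an NKX2-1 motif (TCAAGTG, in 2.68% of all windows), a LIM-homeodomain motif (TAATTA, 4.84%), a MEF2 motif (CTANNNNTAG, 3.20%), a MAF half-site (TGCTGA, 16.1%) and a SOX motif (AACAAT, 9.42%). The *Nkx2-1* window held 1 MAF half-site starting 13 bases before the start and 1 SOX motif starting 114 bases before it. The 5 other windows held none of these letters, which says nothing of binding elsewhere.

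The factors of MGE specification were measured first. *Nkx2-1* (ENSMUSG00000001496, chromosome 12, 56531935 to 56536908) was at 77.4 CPM in MGE-type cells of library 1 and 64.3 CPM in library 2. Cycling GABAergic progenitors, gated on *Dlx1*, *Dlx2* and cell cycle genes, came next with 42.4 and 29.4 CPM, and other GABAergic cells held 46.0 and 11.5 CPM. MGE-type cells stood above both of these classes in both libraries, but the 2 lower classes overlapped each other. This order depended on the gate. When MGE-type cells were chosen without *Lhx6* (by a *Gad1* or *Gad2* UMI and at least 2 UMIs of *Nxph1*, *Sst* and *Npy*), they held 56.8 and 31.7 CPM of *Nkx2-1* against 51.8 and 42.5 CPM in cycling GABAergic progenitors, which were then higher in library 2 and in the mean. *Nkx2-1* was between 3.41 and 16.4 CPM in radial glia and the oligodendrocyte lineage and no higher than 1.19 CPM in upper-layer and deep-layer neurons.

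*Lhx6* (ENSMUSG00000026890, chromosome 2, 36081950 to 36105992) was at 405.7 and 381.0 CPM in MGE-type cells, which its own gate fixes. The gate that did not use it took 700 and 965 cells. In those cells *Lhx6* was at 227.6 and 195.5 CPM. The same gating gave 49.2 and 19.2 CPM in other GABAergic, 24.9 and 20.7 CPM in CGE-type and 2.59 and 1.69 CPM in striatal-type cells. *Lhx6* was thus highest in MGE-type cells also where it did not choose them, though *Nxph1*, *Sst* and *Npy*, markers of the same interneurons, did.

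*Lhx8* (ENSMUSG00000096225, chromosome 3, 154306288 to 154330560) was at 71.9 CPM in MGE-type cells of library 1 and 42.5 CPM in library 2. Other GABAergic cells followed at 23.7 and 6.65 CPM, without overlap. With the gate that did not use *Lhx6*, MGE-type cells held 39.6 and 13.1 CPM and overlapped other GABAergic cells (33.5 and 7.82 CPM) and CGE-type cells (15.2 and 15.6 CPM), which were higher in library 2. No *Lhx8* UMI was found in Cajal-Retzius, oligodendrocyte lineage, microglia, endothelial, pericyte or erythroid cells, classes of 54 to 349 cells in both libraries together, where a count of 0 allows levels of up to 3.65 to 20.1 CPM (3 UMIs in a library).

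The downstream factors were spread over more classes. *Sox6* (ENSMUSG00000051910, chromosome 7, 115470872 to 116040776) reached 1456 and 1312 CPM in MGE-type cells. It was at 982 and 893 CPM in the oligodendrocyte lineage, at 889 and 734 CPM in radial glia, at 686 and 521 CPM in other GABAergic cells and at 590.0 and 534 CPM in intermediate progenitors. MGE-type cells, the oligodendrocyte lineage and radial glia each stood above the next class in both libraries, while the last 2 classes overlapped. With the gate that did not use *Lhx6* these 2 did not overlap, at 364.6 and 169.9 CPM in other GABAergic cells and 597.9 and 536.2 CPM in intermediate progenitors. Upper-layer neurons held 19.0 and 16.4 CPM and striatal-type cells 5.80 and 26.5 CPM, the 2 lowest class means of *Sox6*, though their libraries overlapped those of microglia and erythroid cells.

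*Satb1* (ENSMUSG00000023927, chromosome 17, 51736187 to 51833290), a chromatin organizer, was at 193.5 and 216.1 CPM in MGE-type cells. Other GABAergic cells held 126.4 and 99.7 CPM, deep-layer neurons 100.8 and 90.4 CPM, and intermediate progenitors 99.9 and 88.1 CPM, and these 3 overlapped. With the gate that did not use *Lhx6*, other GABAergic cells held 51.4 and 39.1 CPM. They then lay below deep-layer neurons (101.4 and 90.9 CPM) and intermediate progenitors (100.1 and 87.7 CPM) in both libraries. Its lowest class was the erythroid one, at 6.52 and 4.87 CPM.

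*Maf* and *Mef2c* are not confined to interneurons. *Maf* (ENSMUSG00000055435, chromosome 8, 115703253 to 115706894) was highest in microglia, at 897 and 1768 CPM, followed by MGE-type cells at 470.5 and 594.6 CPM and other GABAergic cells at 314 and 293 CPM. The other 13 of the 16 classes tested lay under 53 CPM. The level in other GABAergic cells depended on the gate. With the gate that did not use *Lhx6* they held 45.8 and 32.7 CPM of *Maf*. *Mef2c* (ENSMUSG00000005583, chromosome 13, 83504017 to 83667079), which is known also from excitatory neurons and microglia, was at 739 and 1070 CPM in MGE-type cells. Upper-layer neurons held 841 and 1073 CPM, deep-layer neurons 895 and 889 CPM and microglia 964 and 856 CPM, so these 4 classes could not be ordered.

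**Figure D1:**
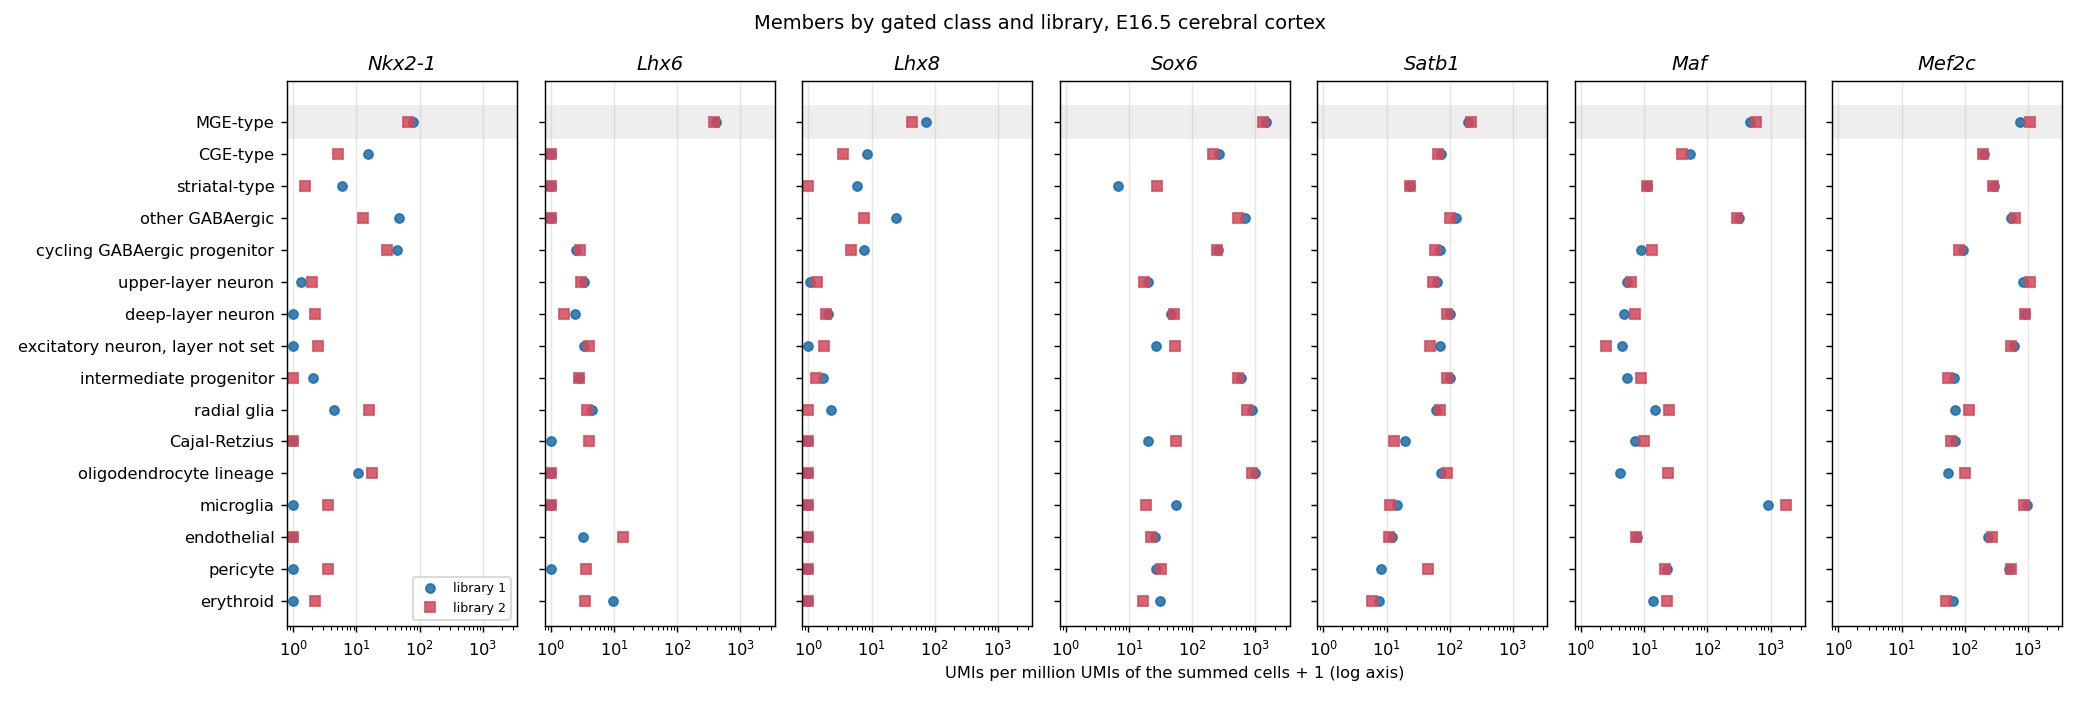
Level of each member (x axis, CPM + 1, log axis) in 16 gated classes (y axis) for library 1 (circles) and library 2 (squares), with MGE-type cells shaded. *Nkx2-1*, *Lhx6*, *Lhx8*, *Sox6* and *Satb1* are highest in MGE-type cells under this gate, which uses *Lhx6*. With the gate that used *Nxph1*, *Sst* and *Npy* in its place, *Nkx2-1* and *Lhx8* were not highest in MGE-type cells of library 2. *Maf* is higher in microglia, and *Mef2c* is as high in both layers of excitatory neurons.

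The first comparison asked which members set MGE-type cells apart from other GABAergic lineages. Against CGE-type cells, 6 of the 6 members other than *Lhx6* were higher in MGE-type cells and none was lower, where 2.89% of the 15476 genes tested were called higher and 2.71% lower. A gene was tested where at least 2 of the sums over all classes held 10 UMIs. A member short of 10 UMIs in a library of the class compared with MGE-type cells could thus enter through the classes where it is high, and its call is not read against the share of all genes. Here this holds for *Lhx8*, with 13 and 7 UMIs in CGE-type cells. *Maf* was at 52.3 and 39.3 CPM in CGE-type cells, a log2 fold change of 3.55 ± 0.17 (SE, adjusted p = 4.9e-18 in edgeR's quasi-likelihood test). *Lhx8* differed by 3.54 ± 0.40 and *Nkx2-1* by 3.04 ± 0.46 on the log2 scale. The *Nkx2-1* difference was 2.31 in library 1 alone and 3.69 in library 2 alone, and its call was lost with DESeq2 (2.97 ± 1.07, adjusted p = 0.092). *Sox6*, *Mef2c* and *Satb1* differed by 2.51 ± 0.16, 2.15 ± 0.15 and 1.57 ± 0.15. The sizes for *Lhx8* and *Nkx2-1* depended on the gates. The gate without *Lhx6* also asked for at least 2 UMIs of *Nxph1*, *Sst* and *Npy*, and the 2 changes cannot be told apart. With it, in values that were not tested, *Lhx8* was at 39.6 and 13.1 CPM in MGE-type against 15.2 and 15.6 CPM in CGE-type cells, which turns the direction in library 2, and *Nkx2-1* was at 56.8 and 31.7 CPM against 21.3 and 14.0 CPM.

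Against striatal-type cells, 6 of 6 members were again higher and none lower, with 5.05% of all genes called higher and 4.73% lower. *Nkx2-1* (6 and 1 UMIs in striatal-type cells), *Lhx8* (6 and 0) and *Sox6* (7 and 49) were short of 10 UMIs there, so only *Maf*, *Mef2c* and *Satb1* are read against these shares. *Sox6* had a log2 fold change of 6.21 ± 0.24 (SE, adjusted p = 5.9e-22), 7.73 in library 1 and 5.56 in library 2, and *Maf* one of 5.72 ± 0.24, 5.41 in library 1 and 5.71 in library 2, so the libraries did not order these genes alike. *Mef2c*, at 283 and 278 CPM in striatal-type cells, showed the smallest difference, 1.67 ± 0.15. Both CGE-type and striatal-type cells were compared with the same MGE-type cells, so these comparisons are not independent.

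Against upper-layer neurons, 5 of 6 members were higher in MGE-type cells and none lower, with 14.0% of all genes called higher and 12.9% lower. Without *Lhx8* (1 and 6 UMIs in upper-layer neurons) and *Nkx2-1* (4 and 17), 3 of 4 are read against these shares. *Maf* differed by 6.69 ± 0.18 and *Sox6* by 6.20 ± 0.19 (SE). *Lhx8* and *Nkx2-1* were also called, but with 7 and 21 UMIs in upper-layer neurons the size of their difference is uncertain, 7.45 ± 0.44 in the fit for *Lhx8* against 6.11 and 5.05 in the single libraries (prior count of 2), and 6.41 ± 0.48 for *Nkx2-1* against 5.87 and 5.01. *Satb1* differed by 1.75 ± 0.13. *Mef2c* was the exception, with a log2 fold change of -0.16 ± 0.14 (SE, adjusted p = 0.42). Under edgeR's RLE scaling the share of higher calls among all genes called rose from 52.0% to 62.4%, and the calls of the members did not change.

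Against deep-layer neurons, 5 of 6 were higher and none lower, with 9.43% of all genes called higher and 10.9% lower. Here too only 3 of 4 are read against these shares, without *Nkx2-1* (0 and 4 UMIs in deep-layer neurons) and *Lhx8* (3 and 3). *Maf* differed by 6.63 ± 0.23 on the log2 scale and *Sox6* by 4.78 ± 0.19. The differences of *Nkx2-1* (6.59 ± 0.66) and *Lhx8* (5.74 ± 0.49) rest on these few UMIs, and single libraries gave 6.35 and 4.91 for *Nkx2-1* and 5.11 and 4.54 for *Lhx8*. *Satb1* differed by 1.04 ± 0.13 (SE, adjusted p = 8.4e-08), its smallest difference from any class tested against MGE-type cells. *Mef2c* again did not pass the test, at -0.05 ± 0.14 (adjusted p = 0.85), with -0.40 in library 1 and 0.19 in library 2.

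**Figure D2:**
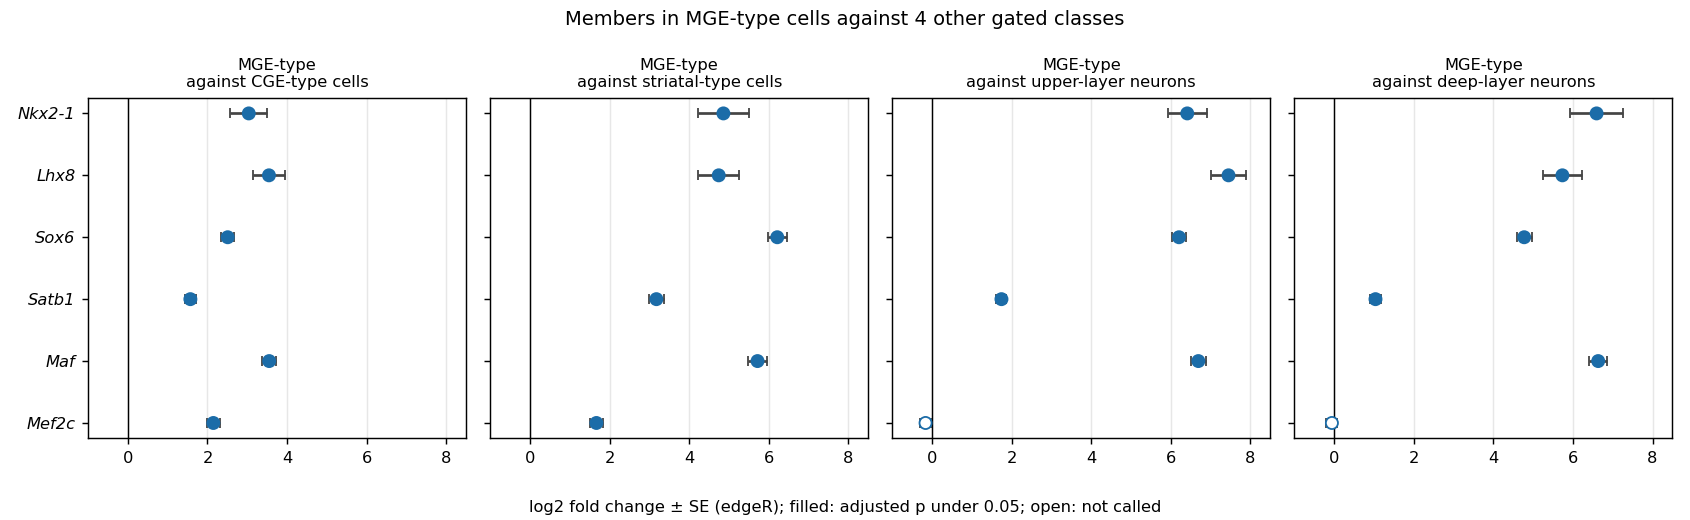
Log2 fold change of the 6 members other than *Lhx6* (x axis, points, with bars of 1 SE) in MGE-type cells against each of 4 classes (panels). Points are filled where the adjusted p passed the threshold, which holds for every point but those of *Mef2c* against both excitatory classes.

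The members were then compared outside the interneurons. Between deep-layer and upper-layer neurons, 2 of 7 members were higher in deep-layer neurons and none lower, with 5.96% of all genes called higher and 2.80% lower. *Lhx6* (4 and 2 UMIs in deep-layer neurons), *Nkx2-1* (0 and 4) and *Lhx8* (3 and 3) were short of the UMI count asked above. Only *Sox6*, *Satb1*, *Maf* and *Mef2c* are therefore read against these shares. The 2 higher members were *Sox6*, at 45.6 and 50.1 CPM against 19.0 and 16.4 (1.43 ± 0.21 on the log2 scale, SE), and *Satb1* (0.70 ± 0.13). *Lhx6* was lower at an unadjusted p under 0.05 but not after adjustment (-1.17 ± 0.55, adjusted p = 0.26), and *Mef2c* differed by -0.11 ± 0.14 and was not called.

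Between radial glia and upper-layer neurons, 3 of 7 members were higher in radial glia and 1 was lower. The shares of all genes were 27.6% called higher and 27.5% lower. *Lhx6* (8 and 8 UMIs in radial glia), *Nkx2-1* (8 and 43) and *Lhx8* (3 and 0) were short of the UMI count asked above. Of the members left, *Sox6* and *Maf* were higher, *Mef2c* was lower and *Satb1* was not called. So few genes cannot be told from the shares of all genes. *Sox6* was higher by 5.37 ± 0.18 (SE) on the log2 scale. *Nkx2-1* was higher by 3.52 ± 0.63, on 8 and 43 UMIs in radial glia (1.68 in library 1 and 2.86 in library 2, each with a prior count of 2), and *Maf* by 1.82 ± 0.28. *Mef2c* fell by 3.51 ± 0.16 in radial glia, where it was at 69.1 and 115 CPM. For *Lhx8* only 3 UMIs in radial glia stood against 7 in upper-layer neurons, and per UMI sequenced the upper-layer level was 0.418 times that of radial glia (counting interval 0.0953 to 2.50).

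Microglia and endothelial cells served as non-neural references. The median log2 fold change of all genes was -0.38 in microglia and -0.31 in endothelial cells against MGE-type cells (-0.18 and -0.17 with RLE scaling), and the members' values are to be read against these medians. In microglia, 1 of 6 members was higher and 4 were lower, with 15.0% of all genes called higher and 16.7% lower. The 4 lower members, *Nkx2-1*, *Lhx8*, *Sox6* (8 and 7 UMIs in microglia) and *Satb1* (2 and 4), were all short of 10 UMIs there, so nothing is read from their count. The member higher in microglia was *Maf* (1.43 ± 0.15, SE), by 1.0 in library 1 and 1.61 in library 2. *Mef2c* differed by 0.04 ± 0.17 and was not called. *Nkx2-1* had 1 UMI in microglia, where its level in MGE-type cells was 38.1 times higher (counting interval 6.79 to 1509), and *Lhx8* had none, which makes it at least 10.1-fold lower against a floor of 3 UMIs over both libraries.

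In endothelial cells, none of the 6 was higher and 6 were lower, with 19.5% of all genes called higher and 24.5% lower. *Nkx2-1* and *Lhx8* had no UMI there, *Satb1* had 5 and 6 and *Maf* 3 and 4, so only *Sox6* and *Mef2c* are read against these shares. *Nkx2-1* and *Lhx8* were at least 24.8-fold and 19.7-fold lower than in MGE-type cells. *Mef2c* fell least, by 1.82 ± 0.18 (SE) on the log2 scale, to 232 and 269 CPM.

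Within MGE-type cells, the members differed in how many cells held them. *Sox6* was detected in 85.5% of the cells in library 1 and 83.7% in library 2. *Mef2c* was detected in 66.4% and 76.7%, *Maf* in 66.0% and 72.2%, and *Satb1* in 47.1% and 42.9%. *Nkx2-1* was detected in 17.9% and 11.9%, and *Lhx8* in 12.8% and 7.88%. Erythroid cells, which should lack these genes, held *Nkx2-1* in 0 of 134 and 1 of 215 cells, *Lhx8* in 0 of these 349 cells, which allows up to 0.860% of cells with a UMI and sets no limit on cells expressing it, *Maf* in 2.99% and 7.44% and *Mef2c* in 9.70% and 8.84%. Their median depth was 2728 and 3007 UMIs, against 3770 and 3924 UMIs in MGE-type cells. All erythroid cells together held 14 and 13 UMIs of *Sox6* and 3 and 4 of *Satb1*. With each cell thinned to 1500 UMIs, the shares in MGE-type cells were 71.6% and 71.2% for *Sox6*, 6.76% and 6.78% for *Nkx2-1*, and 7.69% and 4.21% for *Lhx8*, so the library difference in *Nkx2-1* detection was no longer seen.

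Whether members were found in the same cells was described by the number of cells with both genes over the number that the product of the single shares gives, a ratio with no test, since cells of a library are not replicates. *Nkx2-1* and *Lhx8* were found together in 29 cells of library 1 and 23 of library 2, ratios of 2.94 and 4.49. In thinned cells the ratios were 3.59 and 5.77, on 8 and 9 cells. This was the highest ratio of the 15 pairs in both libraries.

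The early factors shared fewer cells with *Maf* and *Mef2c*. The ratio of *Nkx2-1* with *Maf* was 0.453 and 0.448, and with *Mef2c* 0.508 and 0.441. For *Lhx8* it was 0.358 and 0.322 with *Maf* and 0.383 and 0.424 with *Mef2c*. In thinned cells all 4 of these ratios lay between 0.168 and 0.446 in both libraries, on 2 to 7 cells each. *Maf* and *Mef2c* were found together in 221 and 341 cells, ratios of 1.18 and 1.13, and *Sox6* had ratios between 0.997 and 1.06 with each of the other 5 members with all UMIs.

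**Figure D3:**
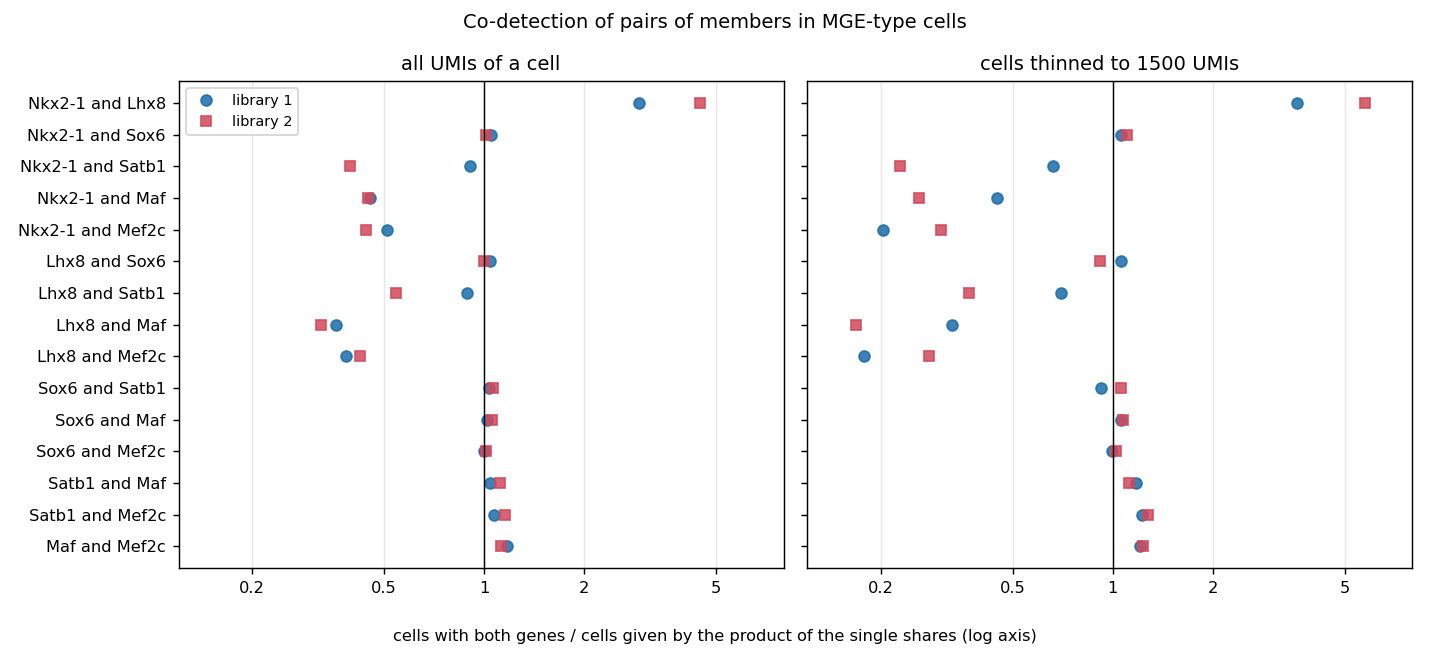
Cells with both genes of a pair over the number given by the product of the single shares (x axis, log axis, 1 marked by a line) for the 15 pairs of members other than *Lhx6* (y axis), in library 1 (circles) and library 2 (squares), with all UMIs (left) and with cells thinned to 1500 UMIs (right). *Nkx2-1* with *Lhx8* lies at 2.94 and 4.49, while both genes with *Maf* or *Mef2c* lie between 0.322 and 0.508 on the left.

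Sorted by these pairs of genes, 68.3% of MGE-type cells in library 1 and 78.0% in library 2 held *Maf* or *Mef2c* without *Nkx2-1* and *Lhx8*. *Nkx2-1* or *Lhx8* without *Maf* and *Mef2c* was found in 11.4% and 7.14%, both pairs in 12.6% and 8.42%, and neither in 7.69% and 6.41%. After thinning, cells with both pairs made up 3.26% and 1.83%. Cells with *Nkx2-1* or *Lhx8* alone were deeper than those with *Maf* or *Mef2c* alone, at medians of 6081 and 4892 against 3203 and 3733 UMIs.

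The split by *Nkx2-1* was then tested on sums per library, 77 and 65 *Nkx2-1*-positive cells against 352 and 481 *Nkx2-1*-negative ones. These are the cells whose co-detection is described above, so the test is not separate evidence for *Lhx8*, *Maf* and *Mef2c*. Of the 5 members that neither gated nor split the cells, 1 was higher and 3 were lower in *Nkx2-1*-positive cells, with 5.15% of 10284 genes called higher and 5.39% lower. *Lhx8* was at 192 and 157 CPM in positive cells and at 29.9 and 23.5 CPM in negative cells, a log2 fold change of 2.74 ± 0.24 (SE, adjusted p = 2.0e-26 in edgeR's quasi-likelihood test). *Mef2c* was at 149 and 172 CPM against 947 and 1218 CPM, and fell by 2.71 ± 0.22 on the log2 scale. *Maf* was at 132 and 137 CPM against 589 and 670 CPM, and fell by 2.19 ± 0.22. For these 3 genes the libraries did not overlap between the groups, and the calls held under all 7 alternatives with a test, at adjusted p up to 7.2e-05.

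*Satb1* fell by 1.35 ± 0.23 (SE) in *Nkx2-1*-positive cells, but the libraries were unequal. Positive cells held 128 CPM in library 1 and 44.6 CPM in library 2, against 217 and 244 CPM in negative cells, so the log2 difference was -0.70 in library 1 and -2.50 in library 2. With DESeq2 the call was lost (-1.52 ± 0.80, adjusted p = 0.60). *Sox6* was at 1608 and 1658 CPM in positive cells and 1403 and 1254 CPM in negative cells, which did not pass the test (0.33 ± 0.20, adjusted p = 0.32).

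*Nkx2-1*-positive cells differed in other measures too. They were deeper, at medians of 6845 and 4992 UMIs against 3415 and 3752. At least 3 UMIs of the cell cycle genes *Mki67*, *Top2a*, *Cdk1*, *Cenpf* and *Ube2c* were held by 11.7% and 16.9% of them against 3.12% and 1.25% of the negative cells, and at least 2 UMIs of the CGE markers by 41.6% and 29.2% against 12.5% and 10.4%. Markers of other cell types that hold *Maf* or *Mef2c* differed in level as well. *C1qa* had no UMI in positive cells against 35 and 7 in negative cells, *Neurod6* was at 34.8 and 35.7 CPM against 76.1 and 64.2, and *Ebf1* at 3.87 and 2.97 CPM against 174 and 7.35, while *Neurod2* was at 1.94 and 20.8 CPM against 27.2 and 20.6. The part of these differences in the results was not tested.

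Among 25 other genes of the MGE lineage, 6 were higher and 10 lower in *Nkx2-1*-positive cells, with a median log2 fold change of -0.22 beside -0.03 over all genes. Of all genes, 5.15% were called higher and 5.39% lower. The lower genes include *Nxph2*, *Npas1*, *Cxcr4* and *Tac1*, each with under 10 UMIs in positive cells over both libraries. These could enter the test only through negative cells, so the count of lower genes is given as a description. *Lmo1*, a transcriptional cofactor, was higher by 2.72 ± 0.29 (SE), and so were *Etv1* (1.45), *Nrp1* (0.85), *Dlx1* (0.78), *Dlx2* (0.75) and *Sp9* (0.59), of which *Dlx1*, *Dlx2* and *Sp9* are known from GABAergic precursors. The chemokine receptor gene *Ackr3* fell by 1.54 ± 0.23, *Nxph2* by 3.89 ± 0.41 and *Npas1* by 2.79 ± 0.52. *Cxcr4*, the receptor that guides cIN migration, had 3 UMIs in positive cells against 115, a level 9.31 times higher in negative cells (counting interval 3.11 to 45.8). *Tac1*, a neuropeptide precursor, had 2 UMIs against 81, a ratio of 9.83 (2.64 to 82.6), and its difference was -4.51 in library 1 and -0.66 in library 2.

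Of 10 genes of subpallial projection and cholinergic neurons, 3 were abundant enough to be tested and 1 was higher, *Zic1* (3.40 ± 0.36, SE), at 60.0 and 119 CPM against 8.15 and 8.82 CPM. *Zic1* was also among the 5 genes with the largest rise. The others were *Sfta3-ps* (3.63 ± 0.22), at 598 and 663 CPM against 50.9 and 52.9 CPM, *Sgo2a* and *Spc25*, of chromosome segregation (3.63 ± 0.53 and 3.52 ± 0.37), and *Asb4* (3.38 ± 0.65). *Sfta3-ps* lies 2515 bases from *Nkx2-1* on chromosome 12. The 5 genes with the largest fitted falls had no UMI in *Nkx2-1*-positive cells, so that their falls have only lower bounds and cannot be ranked against the others. They were *Thbs1* and *Mkx* (both at least 13.9-fold lower), *Gm13986* (at least 13.1-fold), *Cck* (at least 7.85-fold) and *Gm48321* (at least 3.72-fold).

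*Maf* and *Mef2c* were next used against each other, in 62 and 53 cells with *Maf* alone and 64 and 78 cells with *Mef2c* alone. Of 4 members left to test, 1 was higher in *Maf*-only cells and none lower, with 2.42% of 5611 genes called higher and 2.99% lower. *Sox6* was at 2150 and 2184 CPM in *Maf*-only cells and at 1157 and 992 CPM in *Mef2c*-only cells, a log2 fold change of 1.08 ± 0.12 (SE, adjusted p = 7.6e-12), without overlap. *Satb1* differed by -0.57 ± 0.26 (adjusted p = 0.25, with an unadjusted p under 0.05), *Lhx8* by -0.53 ± 0.35 and *Nkx2-1* by -0.02 ± 0.32, none of them called. *Mef2c*-only cells held at least 2 UMIs of the CGE markers in 31.2% and 28.2% of cells against 14.5% and 11.3% of *Maf*-only cells, at medians of 4788 and 4500 against 3332 and 3512 UMIs. *Neurod6* was at 83.2 and 78.4 CPM in *Mef2c*-only against 41.4 and 58.1 CPM in *Maf*-only cells, *Isl1* at 60.3 and 18.3 CPM against no UMI, and at least 3 cell cycle UMIs were held by 4.69% and 7.69% against 1.61% and 3.77% of cells. The part of these measures in the results of this split was not tested.

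Of the other MGE lineage genes, 22 of 25 could be tested in this split, 7 were higher and 4 lower in *Maf*-only cells, with a median of 0.48 beside 0.01 over all genes. Of all genes, 2.42% were called higher and 2.99% lower. The 4 lower genes were short of 10 UMIs in both libraries of *Maf*-only cells and entered the test through *Mef2c*-only cells. Their count is therefore not read against these shares. *Etv1*, an ETS factor, was higher by 2.88 ± 0.25 (SE), at 307 and 499 CPM against 45.9 and 67.9 CPM. *Npy*, *Nxph1*, *Sp9*, *Ackr3*, *Erbb4* and *Zeb2* were higher by 0.58 to 1.69. The semaphorin receptors *Nrp1* and *Nrp2* fell by 3.26 ± 0.48 and 2.15 ± 0.37, *Calb1* by 3.19 ± 0.51, with -3.56 in library 1 and -1.27 in library 2, and *Lmo1* by 1.74 ± 0.51, with -0.47 in library 1 and -2.35 in library 2. None of the 10 subpallial genes reached the count needed for the test.

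Over all genes, the largest rises beside *Etv1* included *Hs3st2* (3.35 ± 0.68, SE), *Sh3rf3* (1.95 ± 0.16) and *Plxna4os3* (1.71 ± 0.40). *Kcnip4*, of potassium channels, had 3 UMIs in *Maf*-only cells against 139, 28.4 times higher in *Mef2c*-only cells (counting interval 9.51 to 139). *Asic2*, an acid-sensing channel, had 3 against 109, a ratio of 22.3 (7.42 to 109.6). *Inpp4b*, *Frmpd4* and *Lin28b* had no UMI in *Maf*-only cells, at least 6.74-fold, 6.74-fold and 4.49-fold lower.

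Because MGE interneurons give rise to SST+ cINs, the members were compared between 93 and 92 *Sst*-positive and 336 and 454 *Sst*-negative MGE-type cells. *Sst* was detected in 21.7% and 16.8% of MGE-type cells and in 8.21% and 7.44% of erythroid cells, which should lack it, and the part of such counts in this split was not tested. *Sst*-positive cells held at least 3 cell cycle UMIs in 1.08% and 1.09% of cells against 5.65% and 3.52% of *Sst*-negative cells, and at least 2 UMIs of the CGE markers in 17.2% and 5.43% against 17.9% and 14.1%. *C1qa* had 2 and 1 UMIs in *Sst*-positive cells against 33 and 6. At least 1 UMI of *Neurod2* or *Neurod6* was held by 17.2% and 25.0% of *Sst*-positive cells against 21.1% and 27.1% of *Sst*-negative cells. The part of these measures was not tested either. Of 6 members, 1 was higher in *Sst*-positive cells and none lower, with 1.87% of 10282 genes called higher and 1.54% lower. *Satb1* was at 315 and 370 CPM in *Sst*-positive cells against 161 and 181 CPM, a log2 fold change of 1.01 ± 0.18 (SE, adjusted p = 2.4e-05). The libraries did not overlap, but the call was lost with DESeq2 (1.01 ± 0.31, adjusted p = 0.11) and without the library as a block (1.01 ± 0.18, adjusted p = 0.12 in edgeR). *Nkx2-1* differed by -0.74 ± 0.27 (adjusted p = 0.13, with an unadjusted p under 0.05), *Lhx8* by -0.53 ± 0.29, *Sox6* by 0.29 ± 0.19, *Maf* by 0.16 ± 0.18 and *Mef2c* by 0.12 ± 0.19, none of them called.

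Of 24 other MGE lineage genes, 4 were higher and 2 lower in *Sst*-positive cells (median 0.13, beside 0.00 over all genes), where 1.87% and 1.54% of all genes were called. Far fewer genes were called in this split with DESeq2 or without the replicate block, as given below. *Lmo1*, with 9 UMIs in *Sst*-positive cells, entered the test through *Sst*-negative cells. *Tac1* was higher by 3.47 ± 0.44 (SE), 4.28 in library 1 and 1.35 in library 2. *Grin3a*, a glutamate receptor subunit, was higher by 2.52 ± 0.27 and *Npy* by 1.59 ± 0.18, while *Lmo1* and *Sp9* fell by 1.82 ± 0.46 and 0.90. Of 4 subpallial genes tested, *Isl1* was lower, with 1 UMI in *Sst*-positive cells against 54, a level 13.1 times higher in *Sst*-negative cells (counting interval 2.26 to 528). *Isl1* could enter the test only through *Sst*-negative cells, so its call is not read as a result of the list. *Gm28905*, *Klf5* and *Vwc2l* were among the largest rises, by 2.55 to 2.94, and *Kif11*, *Pebp4*, *Mfap4*, *Tyrobp* and *Gm11266* had no UMI in *Sst*-positive cells, at least 3.73-fold to 7.70-fold lower. *Tyrobp* is also a gene of the microglia gate, which came after that of MGE-type cells, and the source of its UMIs was not tested.

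**Figure D4:**
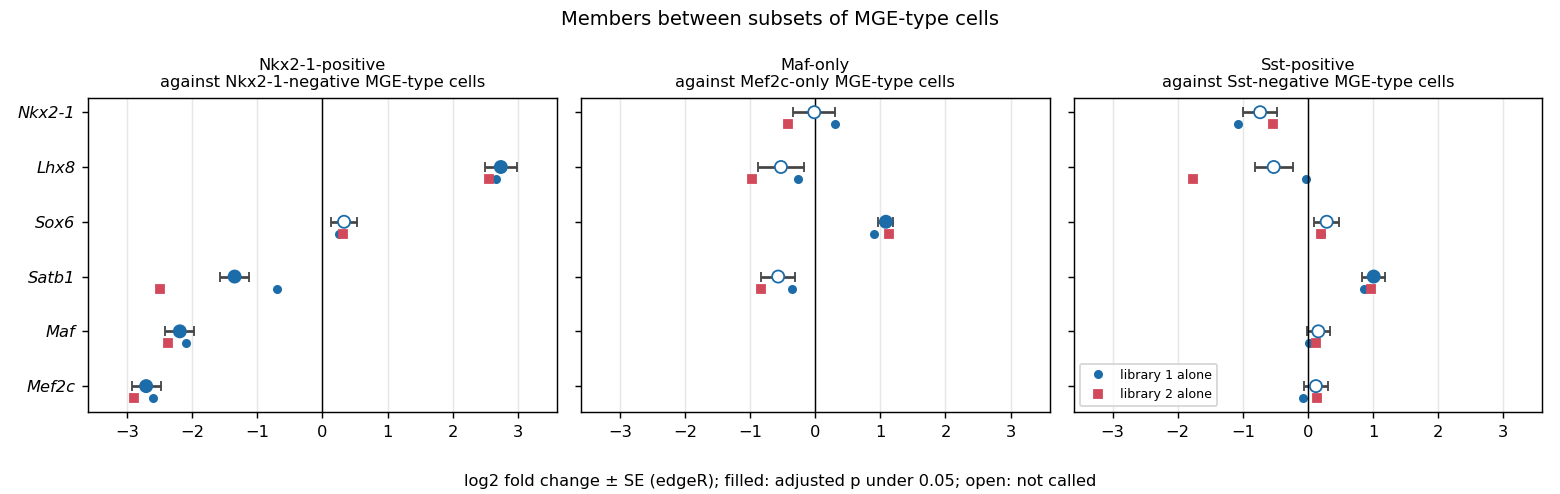
Log2 fold change of the tested members (x axis, larger points with bars of 1 SE, filled where the adjusted p passed the threshold) between 3 pairs of subsets of MGE-type cells (panels), with each library alone below it (small circles for library 1, squares for library 2). *Lhx8* lies at 2.74 and *Maf* and *Mef2c* lie at -2.19 and -2.71 in *Nkx2-1*-positive cells, and *Satb1* has libraries at -0.70 and -2.50.

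Across the gated classes, the other MGE lineage genes were counted in the same contrasts. Against CGE-type cells, 14 of 25 were higher in MGE-type cells and 2 lower (median 0.68, beside -0.01 over all genes), where 2.89% and 2.71% of all genes were called. They were led by *Nxph2*, with 426 UMIs against 3 (144 times higher, counting interval 49.1 to 703), *Npy* (3.91 ± 0.22, SE), *Sst* (3.73 ± 0.24), *Ackr3* (3.44 ± 0.19) and *Nxph1* (3.20 ± 0.21). Against striatal-type cells, 17 were higher and 3 lower (median 2.25, beside 0.01), where 5.05% and 4.73% of all genes were called. *Elfn1* had no UMI in striatal-type cells, at least 38.7-fold lower there. Against upper-layer neurons, 23 were higher and 2 lower (median 4.71, beside -0.02), where 14.0% and 12.9% of all genes were called. Against deep-layer neurons 21 were higher and 3 lower (median 4.46, beside -0.02), where 9.43% and 10.9% of all genes were called. *Nxph1* and *Erbb4* led in both. In microglia 1 was higher and 20 lower than in MGE-type cells, beside 15.0% and 16.7% of all genes, and in endothelial cells 2 and 21, beside 19.5% and 24.5%. Between deep-layer and upper-layer neurons 6 were higher and 1 lower (median -0.01, beside -0.01), where 5.96% and 2.80% of all genes were called. Between radial glia and upper-layer neurons 11 were higher and 6 lower (median 0.62, beside -0.05), where 27.6% and 27.5% of all genes were called, so the count of lower genes stands near that of all genes. Counts of this list against MGE-type cells include genes with few UMIs in the other class and are given as a description.

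Of the 10 subpallial genes, 4 were tested between classes. *Zic1* and *Zic4* were lower in MGE-type than in CGE-type cells (log2 fold changes of -2.38 ± 0.21 and -2.30 ± 0.33, SE). *Zic4* and *Zic1* were also lower than in striatal-type cells, as was *Isl1*, which is one of the genes that gated those cells. All 4, *Zic1*, *Zic4*, *Isl1* and *Gbx1*, were higher in MGE-type cells than in upper-layer neurons. Against deep-layer neurons *Gbx1* and *Isl1* were higher and *Zic1* was lower.

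The genes whose level was most like that of each member over 32 sums of 16 classes and 2 libraries were taken by Pearson's r of log2(CPM + 1), a description over classes that share libraries and depth. For *Nkx2-1* they were *Sfta3-ps* (r = 0.93), *Gm42695* (0.85) and *Sox2ot* (0.84). *Lhx8* was most like *Rpp25* (0.88), *Neb* (0.84) and *Dlx1as* (0.83), and *Lhx6*, whose zeros in other GABAergic classes were set by the gates, was most like *Sst*, *Nxph2* and *Lhx8* (0.53 to 0.50). *Sox6* was most like *Gm45025*, *Smoc1* and *Nr2e1* (0.90 to 0.82), and *Satb1* like *Grik2*, *Setbp1* and *Phf21b* (0.88 to 0.86). *Maf* was most like *Gm15655* (0.91), *Dock2* (0.78) and *Btk* (0.77), and *Dock2* and *Btk* are known from blood-derived cells, while *Mef2c* was most like *Gng2*, *Nfkb2* and *Gmip* (0.74 to 0.73).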

How the data were processed

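Single-cell RNA sequencing of E16.5 mouse cerebral cortex gave 2 WT libraries. The deposited values are counts of molecules for every gene in every barcode, made by the authors with Cell Ranger (version 7.0.0 per the submitters' processing notes, 7.1.0 per the file headers) on mm10, with no normalization. Whether intronic reads were counted is not given in the sources used here. Barcodes numbered 9049 (46398156 UMIs) and 13556 (64324236 UMIs). Cells with 1500 to 60000 UMIs and under 10% mitochondrial UMIs were kept, which 65.9% and 75.6% of barcodes passed, and doublets were removed by the highest Scrublet scores (scanpy 1.11.5) at 0.8% per 1000 barcodes, 432 and 1111 cells. Automatic thresholds marked 155 and 514, all among them.

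Cells were gated into classes on raw UMIs of marker genes, with no clustering. MGE-type cells were gated first. CGE-type cells needed 2 UMIs of *Adarb2*, *Prox1*, *Htr3a* and *Sp8*, and excitatory neurons 3 of *Neurod2* and *Neurod6*. In all, 13.5% and 16.7% of cells met no gate. Counts were summed per library and class (16 classes, each of 20 or more cells per library, or 2 subsets of MGE-type cells) and tested with edgeR 4.0.16 in R 4.3.3 (TMM, genes reaching 10 counts in 2 or more sums, quasi-likelihood test, library as a block), with Benjamini-Hochberg adjustment over all genes tested and a threshold of 0.05. The split fits rest on 4 sums each and borrow their spread from all genes. Differences in 1 library used a prior count of 2. The SE is the fold change over the square root of F. Scripts were tested on simulated data. P-values are judged against the scatter of the sums left after class and library effects, which may be technical. Intervals and floors cover counting error only. The numbers 1 and 2 only name the libraries.

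Alternatives were DESeq2 1.42.0, RLE scaling, no count filter, no block, no doublet removal, stricter MGE-type gates, only the compared classes, and each library alone. The members and gene lists were chosen with earlier results of these data known. Named besides the members were, per split of MGE-type cells, the called genes that moved most (up to 5 each way, from 10 CPM in the higher subset, alike in sign in both libraries), up to 5 called genes per list and comparison, and for each member the 3 genes with the highest correlation. *Dlx1*, *Dlx2* and other list genes given beyond these were chosen after their values were seen. Some genes that these rules name are not reported here.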

Additional observations from a re-analysis of the deposited data

How the results depend on the processing

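Of 45 called fold changes of members, each kept its direction in all 354 refits under alternatives with a test, 350 kept the call and 4 lost it, and no uncalled one was gained. The lost calls were *Nkx2-1* against CGE-type cells and *Satb1* in the *Nkx2-1* and *Sst* splits with DESeq2, and *Satb1* in the *Sst* split without a replicate block, and the cause was not tested. The count of members called in the *Sst* split was therefore 0 with DESeq2 and 0 without the replicate block. In each library alone, all 90 values of called members had the same direction, with no test, but of 65 fold changes of members 18 moved by over 1 SD without replicate 1 and 34 without replicate 2.

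Counts over all genes moved most in the splits. For *Nkx2-1*, 1084 calls became 494 without doublet removal, 179 with DESeq2, 593 with no replicate block and 675 with at least 2 *Gad1* or *Gad2* UMIs. For *Maf* against *Mef2c*, 304 calls became 46 with DESeq2, 143 with no replicate block and 163 with 2 such UMIs. For *Sst*, 350 became 32 with DESeq2, 15 with no replicate block, 197 with 2 such UMIs and 192 without cells holding *Neurod2* or *Neurod6*. Between deep-layer and upper-layer neurons, 1356 became 2655 with only the compared classes fitted.

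With at least 2 UMIs required for detection, the co-detection ratio of *Lhx8* and *Satb1* turned from 0.715 to 1.26, on 7 and 6 cells, and 9 of the other 14 ratios moved by over 1 SD, as did 11 of 15 in thinned cells. With 2 UMIs, *Nkx2-1* with *Lhx8* stood at 4.15 and 8.13, and *Lhx8* with *Maf* at 0.264 and 0. With the gate that did not use *Lhx6*, MGE-type cells held 44.3 CPM ± 17.7 (SD, n = 2) of *Nkx2-1* and 26.3 CPM ± 18.7 of *Lhx8* in place of 70.9 and 57.2, and *Maf* and *Mef2c* moved by less than 1 SD. *Nkx2-1* and *Lhx8* rest on 307 and 244 UMIs in MGE-type cells, which limits every statement on their sharing of cells.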
